A study of Mus musculus with 24 samples.

Results

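The tachykinin genes are the 2 peptide precursor genes Tac1 and Tac2 and the 2 receptor genes Tacr1 and Tacr3, chosen by name among the 32962 genes counted in nuclei of mouse lumbar spinal cord. These 4 genes were found by their symbols in the count table, and their levels are given in each neuron family and population that the authors' deposited annotation names. The nuclei came from male and female ICR/CD-1 mice aged 8 to 11 weeks, an outbred stock. They were profiled by Drop-seq, in which each captured RNA receives a unique molecular identifier (UMI) in a droplet. The labels give the tissue as brain, whereas the protocol describes lumbar cord from which the dorsal root ganglia had been removed.

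The 24 samples were 9 control mice, 10 formalin mice and 5 rotarod mice. Formalin mice had 30 µl of 2% paraformaldehyde injected into the sole of both hindpaws, a painful stimulus, after an hour of habituation. Rotarod mice, habituated in the same way, walked on a rod that sped up to 40 rotations per minute, a motor task. The handling of the control mice and the delay from stimulus to dissection were not stated in these sources, and no mouse is labelled with an engineered allele.

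Tachykinins are short neuropeptides that share a carboxy-terminal Phe-X-Gly-Leu-Met signature, which is amidated after cleavage of the precursor. Tac1 encodes substance P and neurokinin A, and Tac2 encodes neurokinin B. Substance P prefers the receptor encoded by Tacr1, and neurokinin B the receptor encoded by Tacr3, both of which couple to Gq proteins and phospholipase C. In the dorsal horn substance P is also released by nociceptive afferents, whose nuclei lie in the dorsal root ganglia and were therefore not sampled, and Tacr1 is a known marker of projection neurons that carry pain and itch to the brain.

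The precursors differ in the peptides that they hold, and the coding DNA of each signature shows what a Tac1 or a Tac2 count can stand for. Each line is 42 bases of coding strand read from GENCODE M21 transcripts on GRCm38, with the 5 signature codons in capitals, 6 codons before them and 3 codons after them, which encode the glycine used for amidation and a basic cleavage site.
Tac1 substance P: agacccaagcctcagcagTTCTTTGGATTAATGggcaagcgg
Tac1 neurokinin A: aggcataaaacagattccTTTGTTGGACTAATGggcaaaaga
Tac2 neurokinin B: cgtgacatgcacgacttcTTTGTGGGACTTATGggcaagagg
The substance P stretch lies in exon 3 of Tac1 (chr6:7556732-7556773). The neurokinin A signature lies in exon 6 of the same gene, and its stretch spans exons 5 and 6 (chr6:7557743-7559139). The neurokinin B signature lies in exon 6 of Tac2, and its stretch spans exons 5 and 6 (chr10:127728476-127729154). Of the 15 signature bases, 13 are shared by neurokinin A and neurokinin B, 12 by substance P and neurokinin A, and 10 by substance P and neurokinin B. The annotated transcripts Tac1-203 and Tac1-205 hold both Tac1 stretches and Tac1-201 holds 1, so a Tac1 count does not tell the 2 peptides apart.

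All 4 genes lie on the plus strand and overlap no other annotated gene. Tac1 spans 11.0 kb (chr6:7554879-7565834) and Tac2 7.29 kb (chr10:127724478-127731768). Tacr1 spans 158 kb (chr6:82402334-82560104) and Tacr3 106 kb (chr3:134829007-134934579). The sources used here do not state whether reads in introns were counted, so levels below are compared between cells and mice within a gene and not between genes.

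Of 18000 barcodes, 750 per mouse, the authors put 7103 in the neuron class and 4280 of these in 43 populations of 8 families. The first letter of a family name was taken to mean dorsal (D), mid (M) or ventral (V) and the second excitatory (E) or inhibitory (I), while VC and VM are used as codes. Total UMIs per mouse were 640279 to 3243587 in controls, 549903 to 1707338 in formalin and 660286 to 3209063 in rotarod mice, with 145 to 529, 120 to 350 and 175 to 472 neuronal nuclei per mouse. Of the 18000 barcodes 3818 had been discarded by the authors and 757 carried no label, and the titles of 3 control mice (replicates 7, 8 and 9) end in cx, a suffix that the labels do not explain. Of 17977 distinct barcode sequences, 19 occurred in more than 1 sample. The 10 formalin samples are labelled as different mice, but in neurons the formalin samples 1 to 5 resembled the samples 6 to 10 in numerical order, with correlations of deviations from the group mean of 0.13 to 0.43 over 4118 genes and at most 0.03 between other formalin samples. Each of the 10 was closest to its partner, so the edgeR fits and exact tests with formalin mice were also computed with the pairs merged. The means, ranges, pooled population levels, leave-one-out values and outlier checks count the 10 as separate mice. Leaving out 1 formalin sample thus keeps its partner.

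A level is the number of UMIs of a gene per 1000000 UMIs of the same nuclei (counts per 1000000, CPM). In neurons as a class, Tac1 stood at 12.5 CPM (278 UMIs), Tac2 at 10.0 (223 UMIs), Tacr1 at 44.8 (997 UMIs) and Tacr3 at 37.7 (838 UMIs). In the 6 non-neuronal classes together the same genes stood at 2.92, 2.27, 8.88 and 5.31 CPM. At least 1 UMI was found in 2.96%, 1.60%, 8.74% and 6.21% of neuronal nuclei, whose median depth was 2214 UMIs. In oligodendrocytes, taken here as a background, the shares were 0.366%, 0.321%, 1.01% and 0.229% at a median depth of 1092 UMIs. With each nucleus thinned to 500 UMIs the shares in neurons were 0.763%, 0.518%, 2.00% and 1.76%, and those in oligodendrocytes 0.100%, 0.151%, 0.352% and 0.100%. The 2823 neuronal nuclei in no population held the 4 genes at 9.58, 9.39, 48.5 and 25.2 CPM. In neurons all 4 genes were above their levels and shares in oligodendrocytes. Oligodendrocyte precursors (183 nuclei) held the 4 genes at 21.1, 15.8, 10.6 and 21.1 CPM, on 4, 3, 2 and 4 UMIs, and microglia (165 nuclei) at 9.65, 0, 24.1 and 14.5, on at most 5 UMIs, so that Tac1 and Tac2 in the precursors did not lie below the neurons'. The 4 Tac1 UMIs in oligodendrocyte precursors came from 2 nuclei. This class also held the neuron markers Snap25, Syt1, Rbfox3, Rbfox1 and Meg3 at a summed 16807 CPM, against 7311 in oligodendrocytes and 35774 in neurons. The part of neuronal RNA in its levels was not tested. The remaining tachykinin genes were close to undetected, with 5 UMIs of Tac4 and 3 UMIs of Tacr2, the receptor that prefers neurokinin A, in all neuronal nuclei.

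Since populations were defined by clustering the same nuclei, levels across families and populations are descriptions with no test, and their 95% Poisson intervals cover counting error only. The plot of the 43 populations gives the whole pattern.

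**Figure D1:**
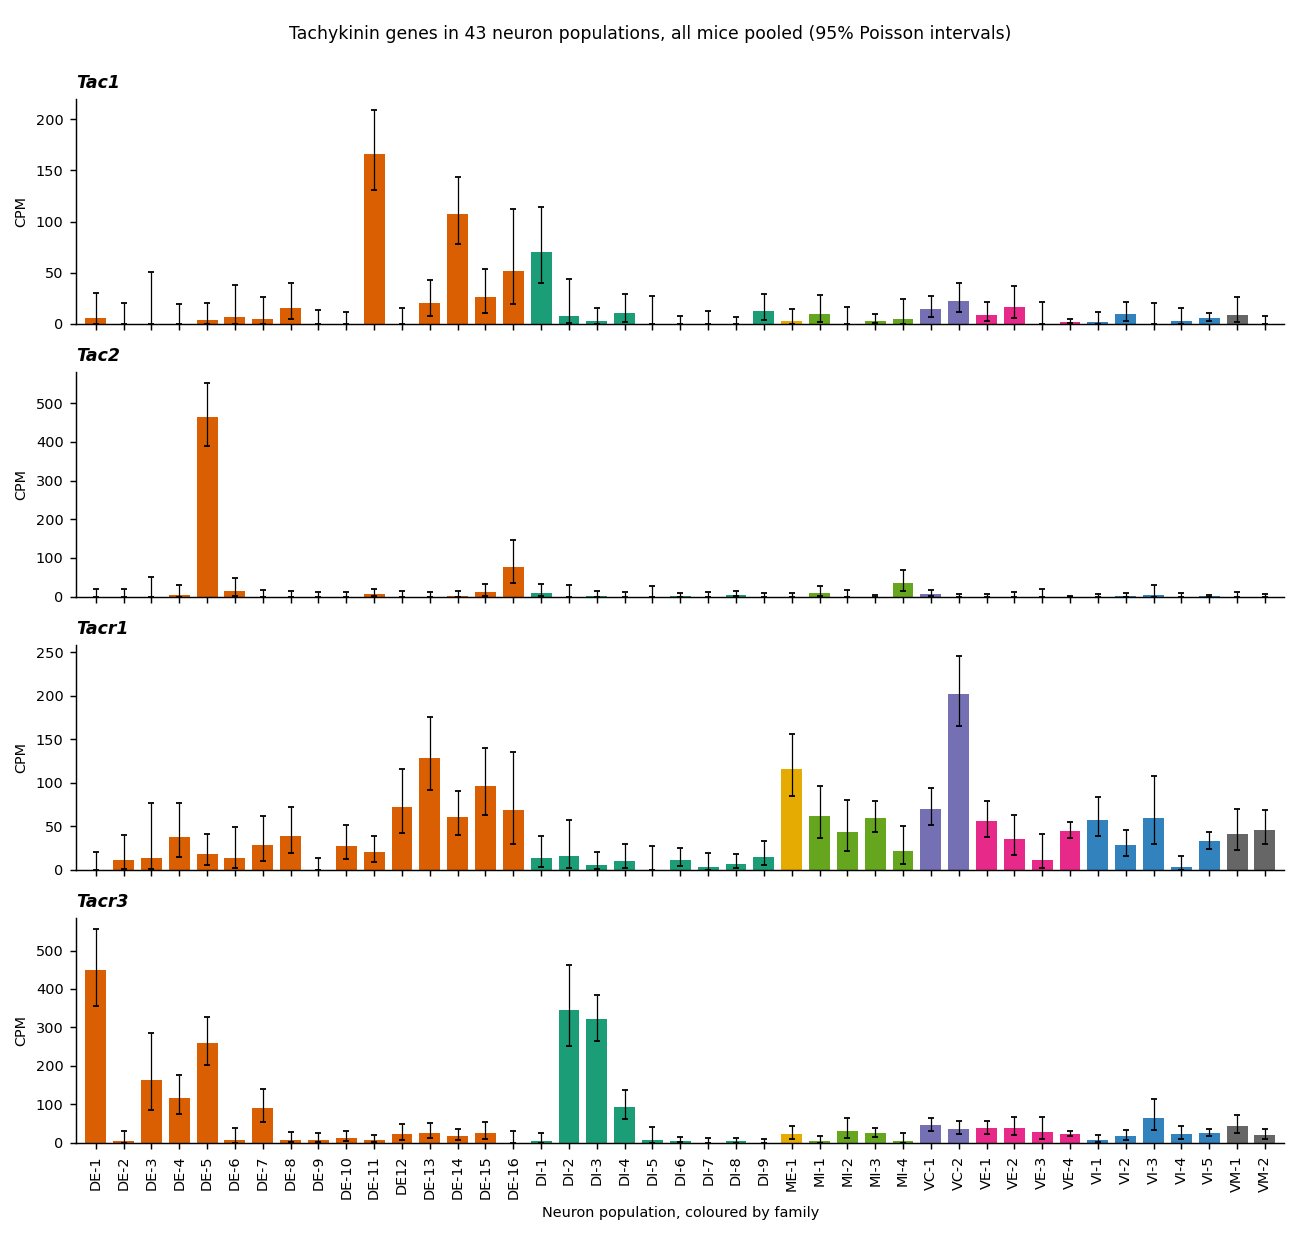
Level of each gene in CPM (y axis) in each of the 43 neuron populations (x axis, coloured by family), with all mice pooled; bars start at 0 and lines are 95% Poisson intervals. Tac2 stood almost alone in DE-5 at 466, Tac1 was led by DE-11 at 166 and DE-14 at 107, Tacr1 was spread over most populations, and Tacr3 had separate peaks in DE and DI populations.

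Tac1 was mainly a dorsal excitatory transcript. It reached 36.8 CPM in the DE family (144 UMIs), 17.8 in VC (20 UMIs) and 8.85 in DI (26 UMIs), and 2.58 to 4.84 in the other 5 families. Over 24 mice the DE level was 37.2 ± 31.6 (SD), with a lowest value of 0, a median of 28.0 and a highest of 129.9, and 23 of 24 mice had at least 1 UMI there. The DI level over the same mice was 10.9 ± 21.6, with 12 mice at 0, so the ranges of the 2 families overlapped.

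Among populations Tac1 was highest in DE-11, at 166 CPM (95% interval 130.4 to 209), from 73 UMIs in 157 nuclei. UMIs were seen in 56 of these nuclei (35.7%) and in 21 of 23 mice with DE-11 nuclei. DE-14 followed at 107 (44 UMIs, interval 77.8 to 144) and DI-1, an inhibitory population, at 70.5 (16 UMIs, interval 40.3 to 114). The interval of DE-14 overlapped that of both neighbours in this order. DE-14 had UMIs in 12 of 24 mice, and 10 of its 44 UMIs came from 5 nuclei of control replicate 7. Those 3 populations held 58.1% of the Tac1 UMIs of all populations and 8.62% of the nuclei, while 14 of 43 populations had 0 UMIs. DI-1 held the inhibitory markers (Gad1, Gad2, Slc32a1, Slc6a5 and Pax2) at a summed 687 CPM and the excitatory marker Slc17a6 at 22.0.

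Tac2 was the most restricted of the 4 genes across populations. It reached 38.3 CPM in DE (150 UMIs), 7.04 in MI (11 UMIs), 3.55 in VC (4 UMIs), 2.38 in DI (7 UMIs) and 0.968 in VI (3 UMIs), and it had 0 UMIs in ME, VE and VM. A count of 0 allows a level of up to 7.75, 0.922 and 3.56 CPM in these families, the worth of 3 counts. Over 24 mice the DE level was 32.5 ± 33.8 (SD), with a lowest value of 0, a median of 20.3 and a highest of 150.4.

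Most of the Tac2 in populations came from DE-5. Its 125 nuclei, 2.92% of those in populations, held 131 of 175 Tac2 UMIs (74.9%), a level of 466 CPM (interval 389 to 552). UMIs were seen in 60 of the nuclei (48.0%), in 20 of 24 mice, and 18 nuclei had 3 or more. In the 12 mice with at least 5 DE-5 nuclei the level ranged from 135 to 1190.4 with a median of 382, and none of them was at 0. Control replicate 8 gave 36 of the 131 UMIs, and without it the pooled level was 378. DE-16 came next at 77.2 (9 UMIs), but 6 of the 9 came from a single nucleus of control replicate 8, and without that mouse, which had 7 DE-16 nuclei, it was 29.6. In MI-4, at 34.6 (8 UMIs), 4 UMIs likewise came from a single nucleus of formalin replicate 3, without which mouse it was 18.5. Of the 43 populations, 26 had 0 Tac2 UMIs.

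The nuclei of DE-5 also held other peptide transcripts. Nmu, encoding neuromedin U, stood at 302 CPM there and 6.79 in all neurons, and Sst, encoding somatostatin, at 252 and 21.0. The 2 precursor genes were apart from each other: Tac1 had 1 UMI in DE-5 and Tac2 had 3 in DE-11. Over all neurons 210 nuclei held Tac1 and 114 Tac2, and 4 held both.

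Tacr1 had the broadest distribution. The VC family led at 129 CPM (145 UMIs), followed by ME at 116 (45 UMIs), and the intervals of these 2 families, 109 to 152 and 84.7 to 155, overlapped. MI, VE, VM, DE and VI lay between 33.9 and 51.9, and DI was lowest at 9.19 (27 UMIs). Over the 22 mice with at least 5 VC nuclei the level was 142 ± 133 (SD), from 0 to 447 with a median of 104, and 18 of them were above 0. In DI it was 8.47 ± 12.4 over 24 mice, with a highest value of 52.5 and 12 mice at 0.

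VC-2 was the leading Tacr1 population at 202 CPM (101 UMIs, interval 165 to 246), with UMIs in 42 of 126 nuclei and 19 of 24 mice. VC-2 held the motor neuron markers Chat, Slc5a7, Prph and Isl1 at a summed 250.2 CPM, against 25.0 in all neurons. The same sum was 300.8 in oligodendrocyte precursors, where 3 of the 4 genes were detected, so it does not set VC-2 apart from that class. DE-13 stood at 129 (39 UMIs, interval 91.5 to 176) and ME-1, the sole population of its family, at 116 (interval 84.7 to 155), and these 2 could not be ordered within their intervals. In ME-1, 17 of the 45 UMIs came from rotarod replicate 4. The 3 leading populations held 24.7% of the Tacr1 UMIs, against 33.9% for Tacr3, 58.1% for Tac1 and 84.6% for Tac2. Tacr1 was above 10 CPM in 36 of 43 populations and had 0 UMIs in DE-1, DE-9 and DI-5, where a count of 0 allows up to 10.6 to 22.0 CPM.

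Within the DE family Tacr1 ranged from 0 in DE-1 and DE-9 through 20.5 in DE-11 and 60.9 in DE-14 to 72.5 in DE12 (the file's spelling), 95.8 in DE-15 and 129 in DE-13. The most Tac1-rich population, DE-11, had 9 Tacr1 UMIs, and the next, DE-14, had 25.

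Tacr3 was highest in the 2 families named dorsal, 1 excitatory and 1 inhibitory. DI stood at 65.3 CPM (192 UMIs, interval 56.4 to 75.3) and DE at 63.4 (248 UMIs, interval 55.7 to 71.8), 2 levels that could not be told apart. The genes Ebf2, Lmx1b, Tlx3, Zfhx3 and Nfib, taken here as dorsal horn markers, summed to 1056 CPM in DE but 419 in DI, the lowest of the 8 families, and 1899 in VC, the highest. Their sum was 1209 in astrocytes, so it did not set dorsal neurons apart and does not bear on the family names. The other 6 families lay lower for Tacr3, between 17.9 in MI and 40.9 in VC. Over 24 mice the DI level was 63.6 ± 43.9 (SD), from 0 to 173 with a median of 55.0, and the DE level 70.6 ± 56.5, from 0 to 218 with a median of 53.5. In DI 22 of 24 mice were above 0 and in DE 23 of 24.

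These close family levels came from few populations. DE-1 held Tacr3 at 448 CPM (82 UMIs, interval 356 to 556), with UMIs in 38 of 68 nuclei (55.9%). DI-2 stood at 345 (44 UMIs, interval 250.5 to 463) and DI-3 at 321 (114 UMIs, interval 264 to 385), and these 2 did not differ beyond their intervals. UMIs were seen in 15 of 20 mice with DE-1 nuclei, 10 of 20 with DI-2 nuclei and 20 of 22 with DI-3 nuclei. Formalin replicate 10 gave 12 of the 44 UMIs in DI-2. DE-5 followed at 259 (73 UMIs, interval 203 to 326), then DE-3 at 164, DE-4 at 117, DI-4 at 94.1 and DE-7 at 90.1. In the 6 mice with at least 5 DE-1 nuclei the level ranged from 147 to 745, and in the 11 mice with at least 5 DI-3 nuclei from 96.1 to 586, so that none of these mice was at 0. The other DI populations, DI-1 and DI-5 to DI-9, were far below: DI-7 and DI-9 had 0 UMIs and DI-1 had 1. In these Tacr3-rich populations Tacr1 had 0 UMIs in DE-1, 2 in DI-2 (15.7 CPM), 2 in DI-3 (5.62 CPM) and 5 in DE-5 (17.8 CPM).

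**Figure D2:**
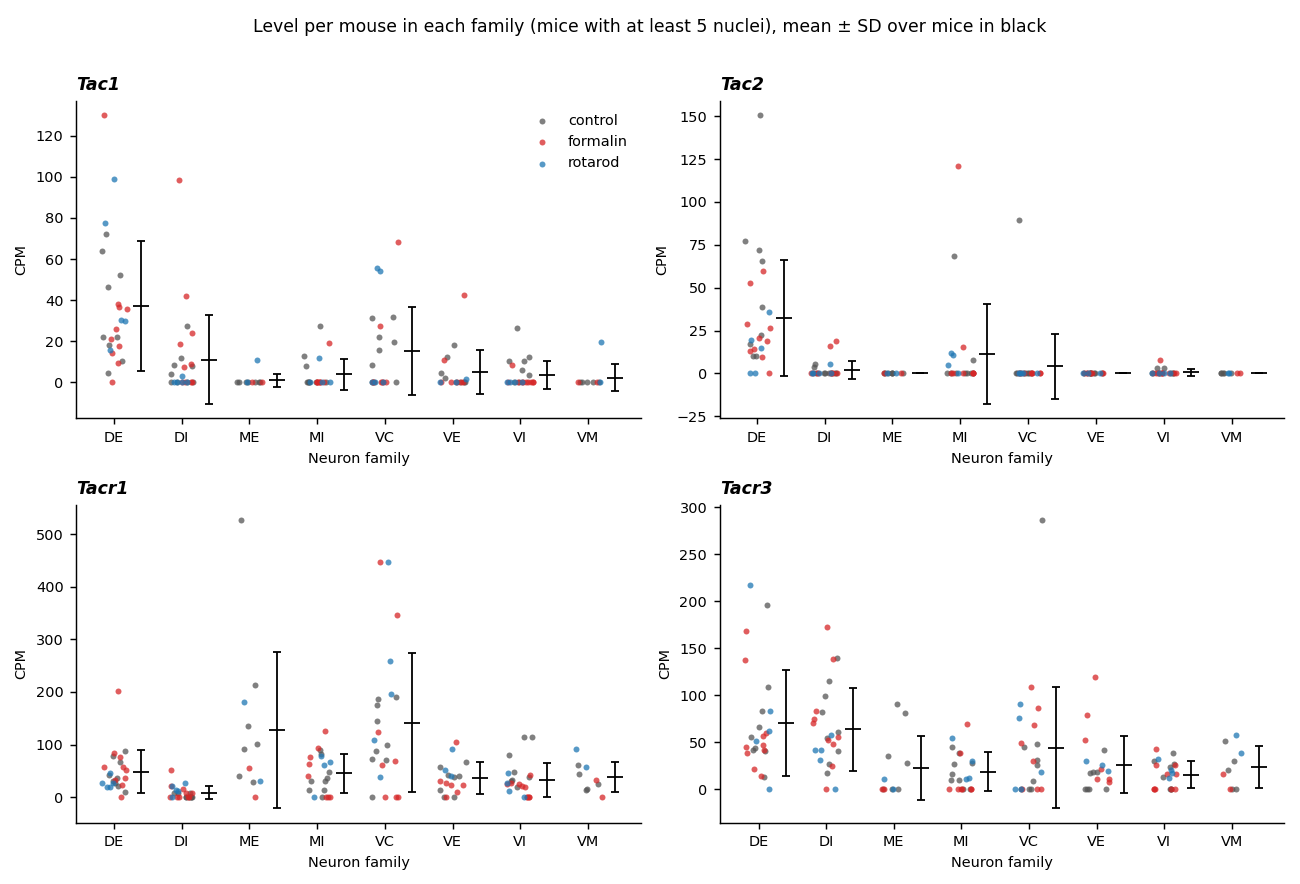
Level of each gene in CPM (y axis) in each neuron family (x axis), where each point is a mouse with at least 5 nuclei of the family, coloured by group, and black lines are the mean ± SD over mice. Tac1 and Tac2 were highest in DE at 37.2 ± 31.6 and 32.5 ± 33.8, Tacr1 in VC at 142 ± 133, and Tacr3 in DE and DI at 70.6 ± 56.5 and 63.6 ± 43.9, with ranges that overlap between families.

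The pairs of peptide and receptor were then set side by side. Across the 43 populations, on the scale log2(CPM + 10), Pearson's r was 0.28 for Tac1 and Tacr1 and 0.07 for Tac2 and Tacr3. It was 0.19 for Tac1 and Tac2, 0.03 for Tac2 and Tacr1, -0.07 for Tacr1 and Tacr3 and -0.18 for Tac1 and Tacr3. The points share libraries and nuclei and many are at 0, so these coefficients are descriptions.

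DE-5 was the exception for the neurokinin B pair, as it ranked 1 of 43 for Tac2 and 4 of 43 for Tacr3. Of its 60 nuclei with Tac2, 17 also held Tacr3 (28.3%), against 20.0% of the nuclei without Tac2. The nuclei with Tac2 were deeper, with a median of 2233 UMIs against 1753, and the part of depth in this difference was not tested. In all neurons 21 of 114 nuclei with Tac2 held Tacr3 (18.4%), against 6.01% of those without, at median depths of 2256 and 2210 UMIs. DE-1, DI-2 and DI-3, the other Tacr3-rich populations, held 1 Tac2 UMI together. For the substance P pair 23 of 210 nuclei with Tac1 held Tacr1 (11.0%), against 8.68% of those without, at median depths of 2520.5 and 2195 UMIs.

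**Figure D3:**
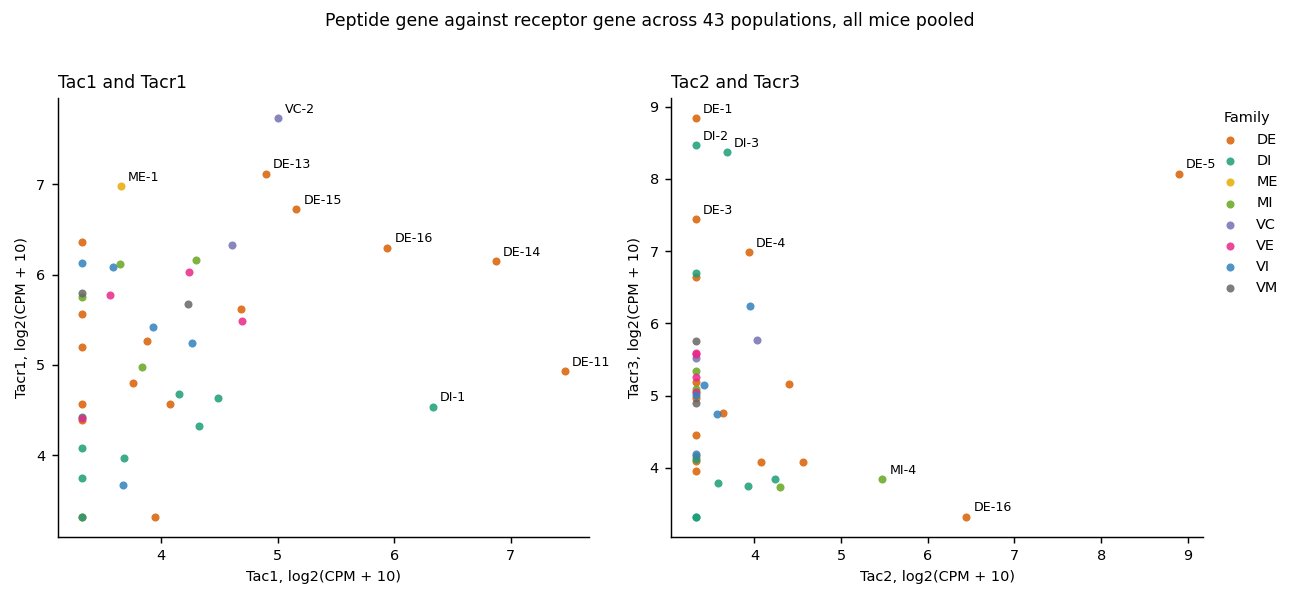
Each point is a neuron population, coloured by family, with the peptide gene on the x axis and the receptor gene on the y axis, both as log2(CPM + 10) over all mice pooled. In the panel of Tac1 and Tacr1 (r = 0.28) the Tac1-rich DE-11 and the Tacr1-rich VC-2 stand apart, and in the panel of Tac2 and Tacr3 (r = 0.07) DE-5 is high on both axes while DE-1, DI-2 and DI-3 are high on the receptor axis alone.

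The genes whose levels across the 43 populations were most like each member were ranked among 11400 genes with at least 50 UMIs. For Tac1 they were Ptger3 (r = 0.64), encoding a prostaglandin E2 receptor, Gcnt2 (0.56), Itpa (0.53), Unc5cl (0.52) and Gpr101 (0.51), and 4 of these 5 were highest in DE-11. For Tac2 they were Mylk (0.74), Nmu (0.72), Clic5 (0.70), Smoc2 (0.65) and Ptgds (0.63), all highest in DE-5. For Tacr1 they were Eda (0.61), Piezo2 (0.60), encoding a mechanically gated channel, Trpc6 (0.60), Pde8b (0.59) and Ctcflos (0.58), with Piezo2 and Pde8b highest in VC-2. For Tacr3 they were Fam204a (0.65), Atxn7l2 (0.64), Alg11 (0.62), Syt16 (0.59) and Cntnap5c (0.58). Cntnap5c was highest in DE-1 at 3339 CPM and then in DE-3 at 3183. The UMIs of the listed genes in these populations ran from 82 for Clic5 to 6601 for Cntnap5c. As the highest of 11400 coefficients over 43 points, these values are descriptions with no test.

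The next question was whether a painful stimulus or a motor task changed these transcripts. In neurons none of the 4 genes passed the test in any of the 3 comparisons. Their levels per mouse overlapped between the groups, and the sum over a group's neurons cannot tell fewer cells of a type from less RNA per cell.

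In control mice Tac1 ranged from 1.78 to 26.0 CPM with a median of 10.1, in formalin mice from 0 to 46.5 with a median of 8.30, and in rotarod mice it was 20.6, 2.68, 18.7, 9.97 and 11.7. The means were 11.9 ± 7.25 (SD, n = 9), 12.0 ± 13.3 (n = 10) and 12.7 ± 7.19 (n = 5). The 3 groups overlapped over most of their range, with formalin replicate 3 alone at the top.

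Tac2 ranged from 2.44 to 26.0 CPM in controls with a median of 11.3, from 0 to 38.7 in formalin mice with a median of 8.49, and was 5.14, 1.34, 3.12, 3.99 and 8.22 in rotarod mice. The means were 12.0 ± 8.01, 12.3 ± 12.0 and 4.36 ± 2.57. All 5 rotarod mice were below the median of each other group and within the range of the formalin mice. The highest of them, at 8.22, was above control mice at 2.44, 4.76, 5.35 and 7.14.

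Tacr1 ranged from 32.6 to 77.4 CPM in controls with a median of 44.8, from 33.1 to 80.8 in formalin mice with a median of 49.5, and was 41.1, 68.3, 34.3, 53.0 and 37.0 in rotarod mice. The means were 46.2 ± 13.7, 50.9 ± 16.7 and 46.7 ± 14.0. The receptor gene was detected in neurons of 24 of 24 mice, and its groups overlapped over most of their range.

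Tacr3 ranged from 25.0 to 67.3 CPM in controls with a median of 33.5, from 20.2 to 85.1 in formalin mice with a median of 33.1, and was 28.3, 21.4, 56.1, 37.9 and 36.4 in rotarod mice. The means were 36.9 ± 12.6, 38.8 ± 18.6 and 36.0 ± 13.0. Here too the groups overlapped.

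**Figure D4:**
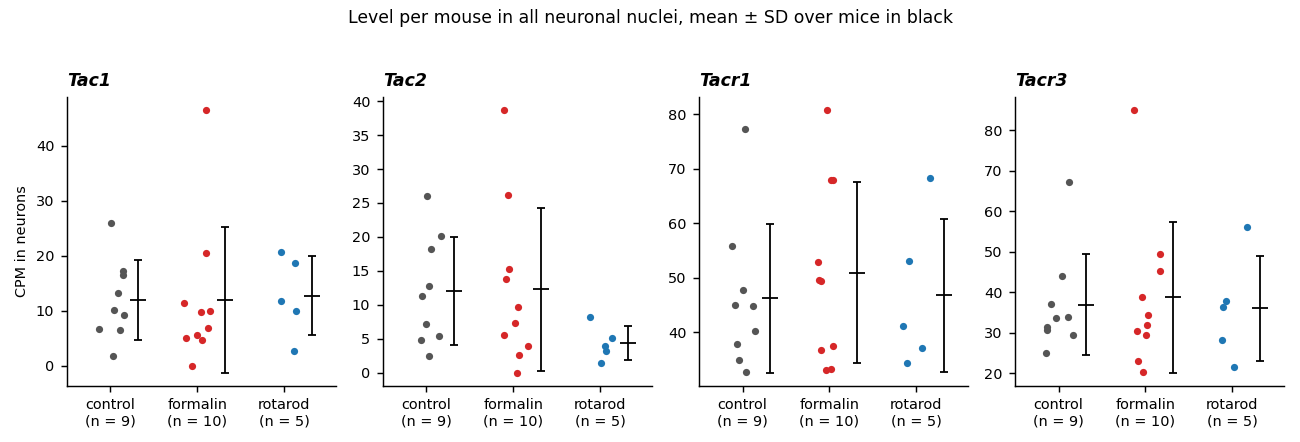
Level of each gene in CPM of all neuronal nuclei (y axis) in control, formalin and rotarod mice (x axis), where each point is a mouse and black lines are the mean ± SD. The groups overlap for all 4 genes, with the rotarod mean low for Tac2 at 4.36 ± 2.57 against 12.0 ± 8.01 in controls.

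In edgeR's quasi-likelihood test on summed neuronal counts, with Benjamini-Hochberg adjustment over 9103 genes, 0% of genes were called between formalin and control mice at an adjusted p under 0.05, 0% between rotarod and control mice, and 2.15% (196 genes) between formalin and rotarod mice. With the formalin pairs merged the last count was 4 of 9984 genes. At an unadjusted p under 0.05 the first 2 comparisons had 766 and 782 genes, and DESeq2 called 2 and 15. None of the 4 members was among the called genes in any of the 3.

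Between formalin and control mice the log2 fold changes were -0.35 for Tac1 (SE 0.44, adjusted p = 0.867), 0.02 for Tac2 (SE 0.47, adjusted p = 1.00), 0.10 for Tacr1 (SE 0.17, adjusted p = 0.909) and 0.11 for Tacr3 (SE 0.21, adjusted p = 0.923). The receptors were thus estimated more closely than the precursors. With the formalin pairs merged the 4 values were -0.35, 0.04, 0.11 and 0.06. Without the 3 cx controls the Tac1 value turned to 0.31, and without formalin replicate 4 the Tac2 value turned to -0.42.

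Between rotarod and control mice Tac2 had the largest difference of the 4, a log2 fold change of -1.19 (SE 0.61, p = 0.0615 before and 0.606 after adjustment). It was -0.79 without control replicate 8 and -1.66 without rotarod replicate 5. Tac1 stood at -0.22 (SE 0.50), Tacr1 at 0.17 (SE 0.19) and Tacr3 at -0.00 (SE 0.25), with adjusted p from 0.867 to 0.999. Without the 3 cx controls the Tac1 value turned to 0.42. In the same neurons the summed level of the oligodendrocyte precursor markers Pdgfra, Cspg4 and Vcan was 14.6 ± 7.01 CPM in rotarod and 32.8 ± 8.33 in control mice. Endothelial or vascular markers were at 21.5 ± 12.9 and 40.8 ± 30.0, meningeal markers at 14.5 ± 5.38 and 26.2 ± 14.3, and Schwann markers at 53.6 ± 25.2 and 90.1 ± 49.9. The means of the microglia, astrocyte and oligodendrocyte markers were lower too. The excitatory marker Slc17a6 was at 47.5 ± 7.54 in rotarod and 59.2 ± 10.9 in control mice, and the inhibitory markers at 277 ± 42.2 and 281 ± 45.6. The part of any of these in the Tac2 value was not tested.

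Between formalin and rotarod mice Tac2 stood at 1.21 (SE 0.63, p = 0.0670 before and 0.318 after adjustment), a comparison that shares the rotarod mice with the previous one. It ran from 0.78 without formalin replicate 4 to 1.67 without rotarod replicate 5. Tac1 stood at -0.13 (SE 0.54), Tacr1 at -0.08 (SE 0.20) and Tacr3 at 0.11 (SE 0.26), with adjusted p from 0.869 to 0.939.

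**Figure D5:**
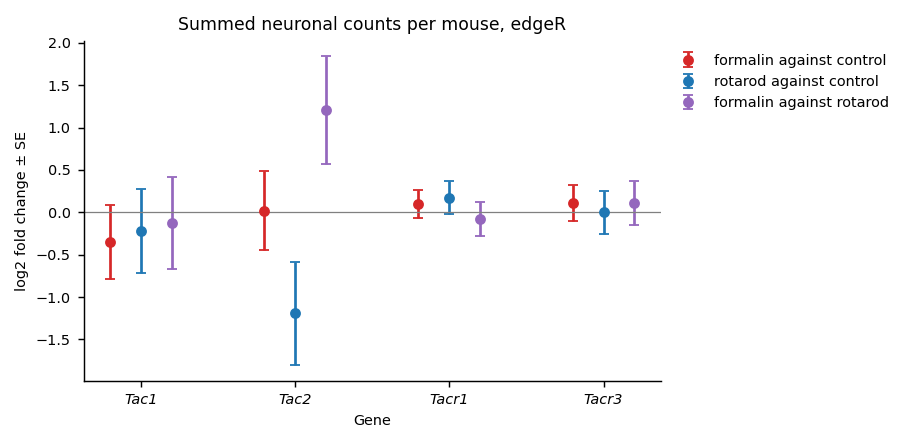
Log2 fold change of summed neuronal counts with its standard error (y axis) for each gene (x axis) and comparison (colour), from edgeR. Both Tac2 values that involve rotarod mice are about 1.2 from 0, at -1.19 and 1.21, and the other 10 values lie between -0.35 and 0.17.

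The same question was then asked within the DE and DI families. In the DE family 0% of 3151 genes were called in each of the 3 comparisons, with 212, 144 and 328 genes at an unadjusted p under 0.05 and 0 by DESeq2. Tacr3 was the only member that passed the expression filter there, with log2 fold changes of -0.17 (SE 0.42) for formalin and 0.22 (SE 0.46) for rotarod against control, and -0.39 (SE 0.48) for formalin against rotarod. In the DI family, where formalin replicate 1 was left out for having fewer than 10 nuclei, no member passed the filter, and 0.0429%, 0% and 0.257% of 2333 genes were called. With the formalin pairs merged no gene was called in DI between formalin and control or rotarod mice.

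The 21 comparisons of members below the filter were tested over mice with a two-sided exact permutation test, and p is given unadjusted. Tac2 in DE averaged 51.6 ± 45.6 CPM in 9 control mice, from 10.4 to 150.4 with a median of 38.7. It averaged 24.5 ± 18.8 in 10 formalin mice, from 0 to 59.7 with a median of 19.9. In rotarod mice it was 0, 0, 19.8, 15.0 and 36.1, a mean of 14.2 ± 15.1. The controls reached higher, but all 3 groups overlapped. The exact p was 0.0950 for formalin and 0.0669 for rotarod against control. The difference from control was -27.1 CPM for formalin mice, -14.8 without control replicate 8 and -9.40 without the 3 cx controls. For rotarod mice it was -37.4, -25.1 and -19.7. The exact p for rotarod ran from 0.0308 to 0.255 over the alternatives, and was under 0.05 without rotarod replicate 5, control replicate 3 or control replicate 6.

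Tacr1 in DI, for rotarod against control, had the smallest exact p of the 21. It was 0 in 6 of 9 control mice and 8.07, 8.11 and 8.50 CPM in the other 3, and in rotarod mice it was 21.1, 26.4, 0, 14.2 and 10.8. The rotarod mean of 14.5 ± 10.1 and the control mean of 2.74 ± 4.11 rest on 11 and 6 UMIs, and the exact p was 0.0160. In edgeR without the expression filter the adjusted p over 22622 genes was 0.747, so the difference does not pass a correction over all genes. Over the alternatives tried the exact p ran from 0.00280 to 0.0448. In the unfiltered edgeR fits of DE and DI the member with the smallest unadjusted p was Tac2 in DE, for rotarod against control. Its log2 fold change was -1.50 (p = 0.000416 before and 0.611 after adjustment). Tac1 in DI for formalin against rotarod mice followed at 3.20 (p = 0.000804 before and 0.337 after adjustment).

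Tacr3 in DI averaged 80.0 ± 47.0 CPM in 9 formalin mice and 34.5 ± 21.5 in rotarod mice, with an exact p of 0.0320. Formalin mice ranged from 24.2 to 173, and the rotarod mice were 42.2, 0, 41.3, 31.3 and 57.7. The adjusted p over all genes without the filter was 0.619, and the exact p was 0.0556 with formalin pairs merged and 0.0503 to 0.0895 without rotarod replicate 2, 3 or 4. The other comparisons had exact p values from 0.0559 upward, the lowest for Tac1 in DI at 22.2 ± 31.9 in formalin and 0.570 ± 1.27 in rotarod mice. Formalin replicate 3 was at 98.6 CPM there, and without it the difference fell from 21.6 to 12.1 CPM (exact p = 0.0870). The exact p of this comparison was 0.0260 with at least 20 nuclei, 0.0326 without formalin replicate 4, 6 or 9 and 0.167 with formalin pairs merged.

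In the leading populations few mice held 5 or more nuclei, and no test over mice was run. Their pooled levels are given by group with Poisson intervals. Tac2 in DE-5 was 607 CPM in controls (88 UMIs in 60 nuclei, interval 487 to 748), 267 in formalin mice (25 UMIs in 46 nuclei, interval 173 to 394) and 420.3 in rotarod mice (18 UMIs in 19 nuclei, interval 249 to 664). Leaving out each control mouse in turn gave 453 to 668, and each formalin mouse 241 to 280.4, with its partner sample kept. Per mouse, the 6 controls with at least 5 DE-5 nuclei ranged from 170.1 to 1190.4, the 4 formalin mice from 135 to 347 and the 2 rotarod mice were at 465 and 494, so controls and formalin mice overlapped. The pooled intervals of these 2 groups did not overlap, but they cover counting error and not the spread between mice.

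DE-5 made up 9.48% of DE nuclei in control, 9.91% in formalin and 5.67% in rotarod mice. The lower share in rotarod mice and the level within DE-5 both enter the sum over the family. Tac1 in DE-11 was 174, 153 and 170.2 CPM in control, formalin and rotarod mice, with overlapping intervals. Tac1 in DE-14 was 145, 85.9 and 68.5, from 27, 8 and 9 UMIs, and the formalin value was 34.7 without formalin replicate 3. In DI-1 Tac1 was 64.3, 129.9 and 17.7, from 7, 8 and 1 UMIs, with overlapping intervals.

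For the receptors the intervals of the 3 groups overlapped in each leading population. Tacr1 in VC-2 was 192 in control, 225 in formalin and 207 CPM in rotarod mice, and Tacr1 in DE-13 was 116, 167 and 96.6. The formalin value in VC-2 was 120.0 without formalin replicate 9, which gave 12 UMIs from 2 nuclei, and the rotarod value was 137 without rotarod replicate 4. In DE-13 formalin replicate 3 gave 8 UMIs from 3 nuclei, and without it the formalin value was 100.3. Tacr1 in ME-1 was 119, 59.6 and 139, from 21, 4 and 20 UMIs, with the rotarod value at 60.5 without rotarod replicate 4. Tacr3 in DE-1 was 472, 359 and 462, with the rotarod value at 797 without rotarod replicate 4, and in DI-3 320 (62 UMIs), 367 and 276. In DI-2 it was 369, 428 and 50.1, where the rotarod value is 1 UMI in 9 nuclei with an interval of 1.27 to 279.

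The genes that make, cleave and read tachykinins were counted by list in neurons, beside the same over all genes tested. Of the 8 neuropeptide maturation genes, which include the prohormone convertases Pcsk1 and Pcsk2 and the amidating enzyme Pam, none was called in the 3 comparisons, and the median log2 fold change was 0.03 for formalin and -0.04 for rotarod against control, where all genes tested had -0.00 and 0.00. The smallest p values were those of Cadps2 (-0.32) and Pcsk2 (0.21) for formalin and of Pcsk1n (-0.83), an inhibitor of Pcsk1, and Pcsk2 (0.22) for rotarod against control, with adjusted p from 0.383 to 0.566. For formalin against rotarod mice they were Pcsk1n at 0.84 and Cadps2 at -0.29, and the list's median was 0.03.

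Of 6 peptidases that can cleave tachykinins 4 were tested and 0 called, with medians of -0.03, 0.16 and -0.18 in the 3 comparisons. Mme, encoding neprilysin, had the smallest p for formalin against control (-0.46, adjusted p = 0.545) and against rotarod mice (-0.75, adjusted p = 0.0713), followed by the genes of endothelin-converting enzymes, Ece1 (-0.17) and Ece2 (0.31). For rotarod against control Ece2 (-0.21) had the smallest p, followed by Mme (0.28).

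Of 17 genes of Gq signalling 14 were tested, and 1 was called. Prkce, encoding protein kinase C epsilon, was lower in formalin than in rotarod mice, at 390.5 and 523 CPM (log2 fold change -0.50, SE 0.12, adjusted p = 0.0184, edgeR), where 2.15% of all genes were called, and 4 of 9984 with formalin pairs merged. It was 421 in control mice, with which neither group differed at the threshold (adjusted p = 0.634 and 0.372). Over 23 alternatives the adjusted p between formalin and rotarod mice ran from 0.00630 to 0.123, and it was 0.0816 with formalin pairs merged, 0.0515 without rotarod replicate 1 and 0.0663 without rotarod replicate 3. The median of the list in this comparison was -0.16, beside 0.01 over all genes. Gnaq, encoding the Gq alpha subunit, had the smallest p of the list for formalin against control (-0.28, adjusted p = 0.545), followed by Prkce (-0.17). For rotarod against control these were Prkce (0.33) and Gna11 (-0.49), the gene of a second alpha subunit of this class. The medians of these 2 comparisons were -0.06 and 0.09.

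Of 6 desensitisation genes 6 were tested and 0 called, with medians of -0.08, -0.12 and 0.02. The beta-arrestin gene Arrb2 was at -0.44 for rotarod against control (adjusted p = 0.605) and 0.52 for formalin against rotarod mice (adjusted p = 0.226), and Arrb1 at 0.27 and -0.35. For formalin against control the receptor kinase genes Grk2 (-0.26) and Grk3 (-0.13) had the smallest p. Of 15 other dorsal horn peptide genes 4 were tested and 0 called, with medians of -0.03, -0.29 and 0.23. Sst and Cck, encoding cholecystokinin, had the smallest p in each comparison. They were at 0.09 and -0.08 for formalin against control. Sst was at -0.94 for rotarod against control (adjusted p = 0.565) and 1.03 for formalin against rotarod mice (adjusted p = 0.235), and Cck at -0.59 and 0.50. In the DE and DI families no gene of any list was called.

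Markers of dorsal root ganglion neurons, another source of Tac1 transcripts, were summed in the same nuclei. Scn10a, Scn11a, Avil, Calca and Trpv1 summed to 11.7 CPM in neurons, with 5 of 5 genes detected, and to 4.56 in DE-11, where 2 of 5 were detected and Scn10a, Calca and Trpv1 were at 0. In DE-5 the sum was 32.0, in VC-2 36.0 and in DI-2 31.3. It was 4.43 in oligodendrocytes and 52.8 in oligodendrocyte precursors. Their summed level in neurons was 14.4 ± 13.2 in control, 7.04 ± 5.69 in formalin and 7.24 ± 5.67 in rotarod mice, and its part in the values above was not tested.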

How the data were processed

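The authors deposited raw UMI counts per gene and nucleus barcode, with a table naming each barcode's class or population. Builds mm10 and GRCm38 are named in the submitters' processing notes. The sources used here name no aligner or annotation, and doublets were not called again. Counts were summed per mouse for neurons, DE and DI (at least 10 nuclei) for the quasi-likelihood test of edgeR 4.0.16 in R 4.3.3, with TMM scaling, filterByExpr by group, a robust fit and 1 model over 3 groups. DESeq2 1.42.0 was the other tool. Members below the filter had exact permutation tests (scipy 1.17.1; Python 3.11.15, numpy 2.4.6, pandas 2.3.3, matplotlib 3.10.9). Levels over mice used at least 5 nuclei. Shares of nuclei were thinned to 500 UMIs.

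Members, lists and tests were chosen with earlier results of these data known. Named were the members, up to 4 called genes per list (or the 2 with the smallest p), each member's 5 most alike genes and 3 highest populations. The lists, beside those in the text, were Tac4 with Tacr2 and markers of neurons and glia. Other named genes and populations were chosen after their values were seen. On simulated counts for formalin against control, 2-fold changes were recovered in 85% of changed genes in neurons (8913 genes), 81% in DE (2985) and 89% in DI (2344), and 4-fold changes in 96%, 87% and 94%, with 18, 5 and 6 false calls. The simulation gave every gene the same spread between mice and drew the changed genes from those above the filter. It therefore does not give the recovery of such changes in the members.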

Additional observations from a re-analysis of the deposited data

Results flagged for a closer look

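Of 24 groups of samples tested for a value far from the rest, 5 were picked out, where chance gives about 1 in 20. Tac1 in neurons of formalin replicate 3 was 46.5 CPM (16 UMIs), against 20.4 in the next formalin sample. The same sample had 129.9 for Tac1 in the DE family (9 UMIs), against 38.1. Tacr3 in neurons was 67.3 in control replicate 4 (20 UMIs), against 44.0 in the next control, and 85.1 in formalin replicate 10 (74 UMIs), against 49.3 in the next formalin sample. Without formalin replicate 10 the Tacr3 log2 fold change of formalin against control turned from 0.11 to -0.15. Tac2 in the DE family was 150.4 in control replicate 8 (47 UMIs), against 77.4 in the next control.

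The 3818 barcodes that the authors discarded, which enter no comparison, held all 4 transcripts above the level that 3 counts would give. Tac1 stood there at 11.7 CPM (33 UMIs), Tac2 at 7.45 (21 UMIs), Tacr1 at 30.5 (86 UMIs) and Tacr3 at 13.1 (37 UMIs), each between its level in non-neuronal classes and in neurons.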

How the results depend on the processing

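Leaving out each mouse, which can move a mean over 22 to 24 mice only a little, gave 33.2 to 38.8 CPM for Tac1 in DE, 27.4 to 33.9 for Tac2 in DE, 127 to 148 for Tacr1 in VC and 58.9 to 66.4 for Tacr3 in DI, the family highest for Tacr3 by pooled level (over mice DE was higher). None of 329 alternative values of a member's log2 fold change passed the threshold. The sign of a member's log2 fold change turned most often where it was near 0: in 10 of 24 alternatives for Tac2 and 1 of 26 for Tacr3 (formalin against control), 5 of 20 for Tacr3 and 3 of 20 for Tac1 (rotarod against control), and 4 of 23 for Tacr3 and 3 of 23 for Tacr1 (formalin against rotarod). Of 377 alternative exact tests 11 fell below and 4 rose above 0.05, among them Tacr1 in DE for formalin against rotarod mice (0.112 to 0.0159 with pairs merged) and Tacr3 in DI (0.0320 to 0.0895 without rotarod replicate 2).

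Counts of called genes over the whole table moved by over 1.5 times in 67 of 205 alternatives, and the cause was not tested. In neurons formalin against control gave 2 with DESeq2 and 31 with no filter, and rotarod against control 15 with DESeq2, 43 with no filter, 1 with the 2 groups compared and 3 without the cx controls. Formalin against rotarod gave 4 with pairs merged. In DE, rotarod against control gave 2 with no filter and 1 with 2 groups, and formalin against rotarod 2 with no filter and 1 with at least 20 nuclei. In DI, formalin against control gave 3 with no filter and 0 with 2 groups, at least 20 nuclei, no cx controls or pairs merged, rotarod against control 2 with no filter and 1 with 2 groups, and formalin against rotarod 3 with no filter, 3 with 2 groups and 0 with pairs merged. Leaving out each mouse gave, for formalin against control, rotarod against control and formalin against rotarod, 0 to 1, 0 to 11 and 60 to 239 in neurons, 0 to 0, 0 to 0 and 0 to 7 in DE, and 0 to 1, 0 to 0 and 3 to 8 in DI.

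The numbers 1 to 5 shared by formalin and rotarod samples did not pair them: correlations ran from -0.114 to 0.0977 in neurons, -0.0652 to 0.0594 in DE and -0.137 to 0.00538 in DI. With the replicate block formalin against rotarod gave 31, 7 and 1 called genes in neurons, DE and DI, and the same samples without a block, added after seeing the data, 45, 2 and 3.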
